A study of Danio rerio with 12 samples.

Results

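The subject is gene expression in unexposed zebrafish larvae, the 3 control pools of a study of 12 pools. The study exposed larvae of the wild-type AB strain to the herbicide atrazine at 0, 0.3, 3 or 30 ppb, beginning about 1 h after fertilization (hpf) and ending at 72 hpf. Each dose had 3 pools made from 50 embryos, and total RNA of the whole larvae was labelled with Cy3 and hybridised to a one-colour NimbleGen oligonucleotide array. The labels count a pool as 1 biological replicate and do not say whether the pools came from separate clutches. The pools titled 0 ppb were taken as the members, numbered as pool 1, pool 2 and pool 3 after their labels. No dose is compared here, and no test was run, since a single group has no contrast.

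A gene's level is the mean log2 intensity of the array features that carry its symbol, given as mean ± SD over the 3 pools. Symbols were available for 2650 of 37144 units on the array. The remaining 34494 units were targets unnamed here, so many familiar markers are not analysed here. Most named genes, 2279 of them, were read by 12 features. The brightness of a feature also depends on its sequence, so the order of genes below is an order of array signal and not of transcript number. In RNA of whole larvae, fewer cells of a type and less RNA per cell cannot be told apart. No background reading was available, so a dim signal does not show that a gene was silent. Genes of near-identical families may also share signal, which was not checked because no probe sequences were used here.

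At 72 hpf the zebrafish has hatched or is hatching, lives on its yolk, has a beating heart, circulating embryonic red cells, working trunk muscle and an eye with a transparent lens. Lens fibres fill with crystallins, and trunk muscle fills with actin, myosin and troponin, so these proteins are among the largest products of the larva. The adaptive immune system, the gonads and the mature sense of smell and taste are still forming at that age.

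The named genes spanned levels from 5.1 to 15.35, with a median of 9.43. The middle of the range was narrow, with 25% of the genes below 8.01 and 25% above 10.67. The 5th percentile stood at 6.1 and the 95th at 12.42. In what follows, a gene is called bright above 10.67, in the top 25% of named genes, and dim below 8.01, in the bottom 25%. The unnamed targets had a lower median of 8.97 and reached 15.99, and 17 of them were brighter than the brightest named gene. Among the 100 brightest units on the array 8 were named genes, and among the 100 dimmest only 1 was. The order given here is therefore an order within the named genes.

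The brightest named genes with at least 6 features were genes of energy supply, translation, lens and muscle. Of the 20 brightest, 5 encode lens crystallins, 4 belong to the cytosolic ribosome and 2 encode proteins of the muscle filament. First was slc25a5, which encodes an ADP/ATP carrier of the inner mitochondrial membrane, at 15.22, 15.56 and 15.26 in pools 1, 2 and 3 (15.35 ± 0.19). The skeletal actin gene acta1b followed at 15.22, 15.26 and 15.08 (15.19 ± 0.09). The ribosomal protein gene rps6 read 15.13, 15.16 and 15.03 (15.11 ± 0.07). The pools of slc25a5 and acta1b overlapped, as did those of acta1b and rps6, while those of slc25a5 and rps6 did not. Within each pool the order of these genes was the same. The fast-muscle myosin light chain gene mylpfb stood at 15.09 ± 0.22 and the lens gene crybb1, for a beta crystallin, at 15.08 ± 0.12. After them came rack1, for a scaffold protein on the small ribosomal subunit (14.97 ± 0.09), the beta crystallin genes cryba1l1 (14.90 ± 0.03) and cryba2a (14.72 ± 0.13), and the ribosomal genes rpl27a (14.88 ± 0.03) and rps20 (14.80 ± 0.30). The embryonic globin gene hbae3 reached the same mean as rps20, at 14.80 ± 0.15. Of the 19 pairs of neighbours in this order, 0 had pools that did not overlap, so no step from one gene to the next was larger than the spread between pools.

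The rest of the 20 brightest genes extended the same functions to the nervous system and the mitochondrial matrix. The presynaptic gene sncb, for beta-synuclein, read 14.43, 14.52 and 14.65, and was the only member of the neuronal list among them. The mitochondrial enzyme genes idh2 (14.50 ± 0.12) and mdh2 (14.31 ± 0.09), which encode dehydrogenases of isocitrate and malate, lay beside atp5f1b (14.50 ± 0.25), the beta subunit of ATP synthase. The calcium sensor gene calm2b stood at 14.47 ± 0.13, tpt1, for the translationally controlled tumour protein, at 14.51 ± 0.14, and naca, which encodes a chaperone of new polypeptides, at 14.43 ± 0.09. The pools of idh2, atp5f1b, calm2b, tpt1 and naca overlapped, although idh2 and tpt1 each exceeded calm2b and naca in every pool. The gamma crystallin genes crygm2d3 (14.59 ± 0.48) and crygm2d7 (14.31 ± 0.32) were the most variable of the 20. Over the 20 genes the SD ran from 0.028 to 0.478. Of the 228 features behind them, 8 exceeded an intensity of 60000 in some pool, near the highest value on these arrays (65166). This count cannot show compression of signal below that intensity, which was not tested.

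At the other end lay receptors of the senses and of immunity. Of the 20 dimmest genes with at least 6 features, 9 were chemosensory receptors, 3 belonged to the class II major histocompatibility complex and 2 to the fish immune-type receptor family nitr. The dimmest was nitr1n, at 5.07, 5.29 and 4.95 (5.1 ± 0.18), and nitr6a stood at 5.36 ± 0.20. The class II genes mhc2d8.45b1, mhc2dgb and mhc2d8.35b2 read 5.25 ± 0.24, 5.31 ± 0.15 and 5.50 ± 0.07. The chemokine receptor genes cxcr3.1 (5.16, 5.35 and 5.69) and ccr10 (5.54 ± 0.08) were in the same range. Odorant receptor genes were represented by or30bu2, or63b2, or91a3, or70a8, or90a1 and or41a2, and taste receptor genes by tas1r2.1, tas1r2.2 and tas2r203. All 20 genes lay between 5.1 and 5.54, and 0 of their 19 neighbouring pairs had pools that did not overlap. The lowest single-pool value among the bright 20 was 13.97 and the highest among the dim 20 was 5.78.

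**Figure D1:**
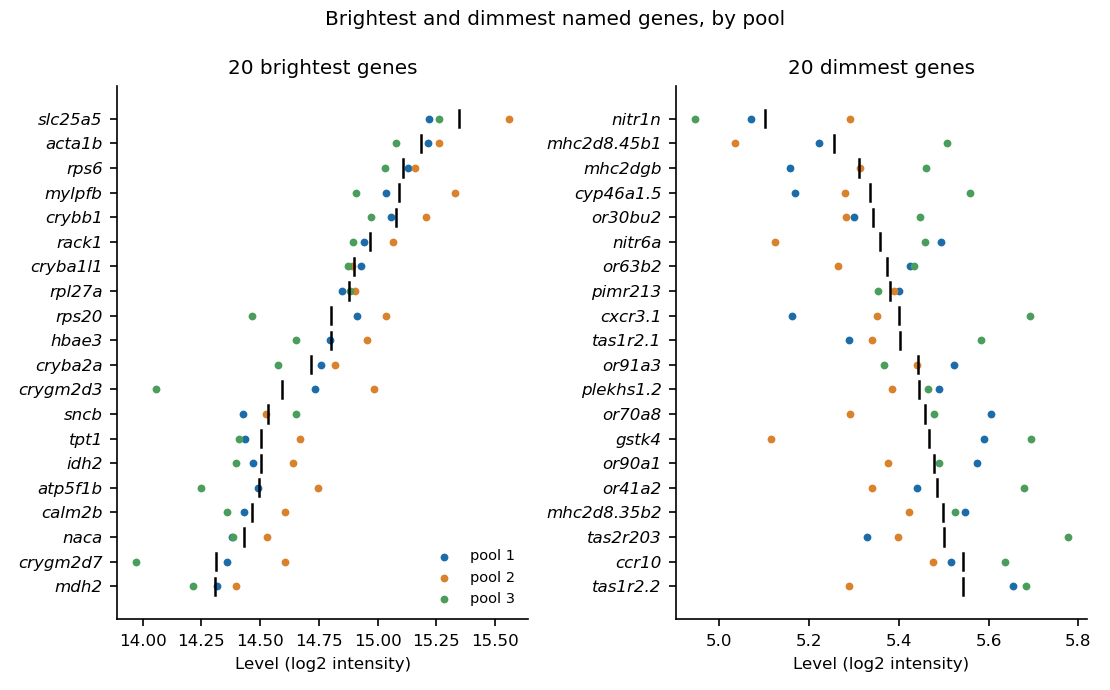
Levels (log2 intensity) of the 20 brightest (left) and 20 dimmest (right) named genes with at least 6 features. Coloured points are the 3 unexposed pools and black bars their means, on different scales in each panel. The spread of crygm2d3, with pool 3 lowest at 14.06, is the widest of the bright genes, and the dim genes lie between 5.1 and 5.54.

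Marker lists of 22 tissues with at least 3 measured members were set beside the label of whole larvae. The tissue lists with medians above that of named genes were lens, epidermis, notochord, skeletal muscle, neurons, glia, liver, endothelium, kidney with ionocytes, and pigment cells. Some lists changed side with the processing. Relative to the median of named genes, the glial median moved from 0.67 to -0.47 and the pigment median from 0.06 to -0.64 when genes with under 6 features were left out, and the retinal median moved from -0.30 to 0.028 when each gene was the median of its features. Each tissue with a list median above that of named genes had at least 1 gene brighter than 10.67. So did the lists of blood, retina, ear, cartilage, intestine, exocrine pancreas and neurohormones. By definition 25% of named genes are that bright, so most lists of several genes would hold 1, and this does not check the label. The bright share was below 25% for neurohormones (9.1%), kidney with ionocytes (12.5%), intestine (16.7%), blood and vessels (18.2% each) and cartilage with bone (20%). On the kidney and ionocyte list the only bright gene of 8 was atp6v0a1a (11.24), of the vacuolar ATPase, and nphs1 was dim (7.70). The bright vessel genes were acta2, for smooth muscle actin, and amotl2a, while cdh5 and egfl7 were not bright. A bright member therefore need not be particular to its tissue. The lists of heart, innate immune cells, lymphocytes, gonad, and hatching gland with yolk had no member that bright. The last of these held only prdm1a, vtg4 and vtg5. No hatching enzyme gene was measured under a symbol, and the vtg genes also stand on the liver list. A list holds only the markers with a symbol, and its median can move with 1 member where few were measured.

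**Figure D2:**
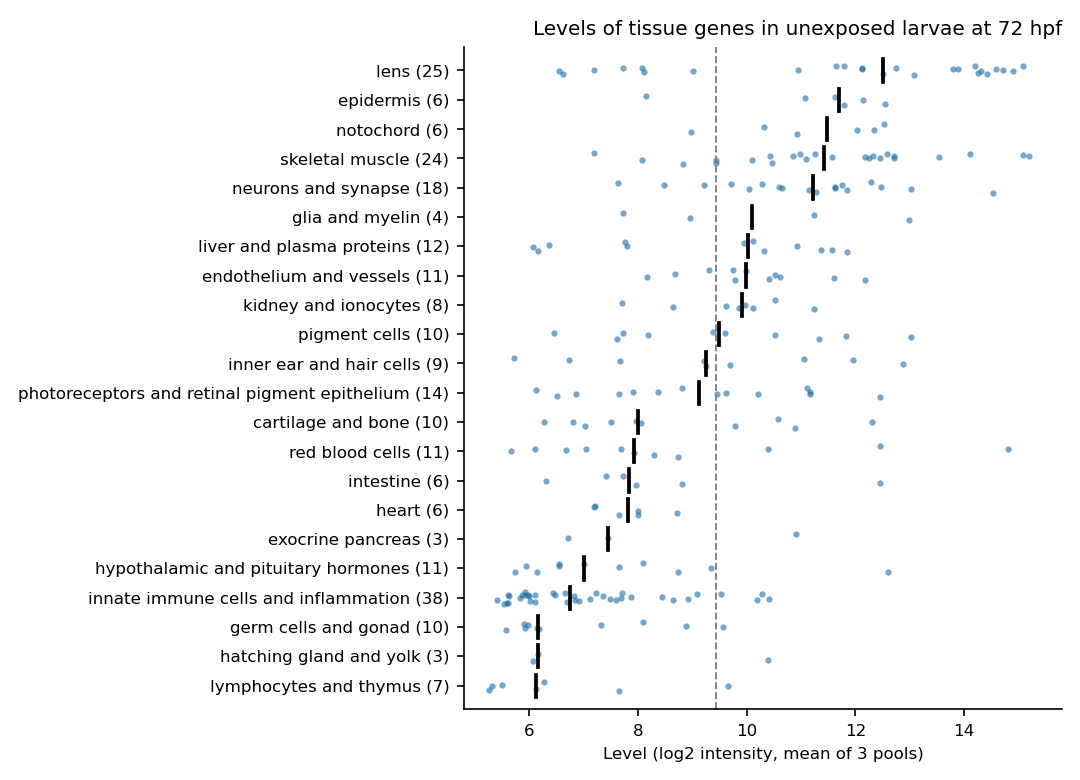
Levels of the measured marker genes of each tissue (log2 intensity, mean of 3 pools), with the number of genes in brackets. Points are genes, black bars list medians and the dashed line the median of all named genes (9.43). Lens genes span 6.54 to 15.08, and the medians run from 12.52 for lens to 6.12 for lymphocytes and thymus.

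Lens genes formed the brightest tissue list, with a median of 12.52 over 25 genes, a level above 95.7% of all units. Of the 25 genes 18 were bright and 4 dim. All 4 measured beta crystallin genes lay between 14.25 and 15.08. The 8 genes of the crygm2d group, gamma M crystallins of the fish lens, lay between 11.65 and 14.59. Of the other crystallin genes, crygn2 (13.80 ± 0.10), crygmx (12.75 ± 0.15) and crybgx (12.52 ± 0.24) lay within that range and others below it. The genes crygm2a (7.18 ± 0.28) and crygm2b (6.61 ± 0.11) were dim, and so was cryabb, a small heat shock crystallin, at 6.49, 6.32 and 6.82 (6.54 ± 0.25), the dimmest of the list. Membrane genes of the lens fibre were between these limits, with mipa, a water channel, at 12.13 ± 0.19 and lim2.3 at 12.12 ± 0.10. The transcription factor gene foxe3, active in the lens epithelium, was dim at 7.73 ± 0.10.

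Skeletal muscle had a median of 11.42 over 24 genes, of which 16 were bright and 1 dim. Filament genes led, and after acta1b and mylpfb came tpm2, for a tropomyosin, at 14.11 ± 0.12, and tnnc1b, for a troponin C, at 13.53 ± 0.04. Calcium-store genes casq1a (12.71 ± 0.26) and casq1b (12.45 ± 0.11) were also bright, and stac3, needed for excitation-contraction coupling, lay close to the middle of the list at 11.57 ± 0.16. Copies of 1 troponin I group covered much of this range. The gene tnni2b.2 stood at 12.72 ± 0.12, tnni2a.1 at 10.21, 10.45 and 9.65, and tnni2a.3 at 8.07 ± 0.06, and their pools did not overlap. The regulator vgll2a was the only dim gene, at 6.93, 7.12 and 7.51 (7.19 ± 0.29).

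Heart genes were much lower in these whole-larva pools, with a median of 7.82 over 6 genes and 0 above the median of named genes. The brightest was tnni1b, a troponin I gene, at 8.67, 8.89 and 8.58 (8.71 ± 0.16). The regulatory light chain gene myl7 read 7.95, 7.94 and 8.11 (8.0 ± 0.10) and the atrial myosin heavy chain gene myh6 read 7.29, 7.64 and 8.04 (7.66 ± 0.37). The troponin I copy tnni2a.3 of the skeletal list lay among these values and the other filament genes named for trunk muscle above them, and pool 3 was highest for myh6. The sodium channel gene scn5lab stood at 7.99 ± 0.27, the potassium channel gene kcnh2a at 7.21 ± 0.19 and the muscle LIM protein gene csrp3 at 7.19 ± 0.08. The features of myl7 disagreed strongly, with an SD of 2.71 among its 11 features. For tnni1b and csrp3 the SD among features was 2.04 and 2.02, against a median of 1.27 over named genes. The mean levels of myl7, tnni1b and csrp3 are therefore less certain than the SD between pools shows.

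Neuronal genes had a median of 11.22 over 18 genes, with 10 bright and 1 dim. After sncb came stmn2b, a microtubule regulator of growing axons, at 13.02 ± 0.05. Genes of inhibitory transmission were bright: slc6a5, the neuronal glycine transporter, at 12.28 ± 0.10, and slc32a1, the vesicular transporter of GABA and glycine, at 11.62 ± 0.04. The vesicular glutamate transporter genes slc17a6a (11.28 ± 0.11) and slc17a6b (11.62 ± 0.35) were near them, and the range of slc17a6b enclosed that of slc32a1. Lower on the list were fev, a regulator of serotonin neurons, at 8.48 ± 0.28, and slc18a3b, a vesicular acetylcholine transporter, at 7.63 ± 0.35. Among glial genes, fabp7a, a fatty acid binding protein of radial glia, read 12.95, 13.17 and 12.81 from only 3 features. The myelin gene mag stood at 11.24 ± 0.07, the oligodendrocyte regulator olig1 at 8.96 ± 0.29 and the receptor gene erbb3b at 7.73 ± 0.19.

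Neurohormone genes contrasted with the neuronal list, with a median of 7.01 over 11 genes and 7 of them dim. The one bright gene was scg2b, which encodes a secretogranin of secretory granules, at 12.60 ± 0.09. Hypothalamic genes were spread over the lower levels, with npffl at 9.34 ± 0.14, the vasopressin gene avp at 8.74 ± 0.19 and the thyrotropin-releasing hormone gene trh at 8.09 ± 0.28. The orexin gene hcrt was dim at 6.39, 6.30 and 6.94. The opioid peptide gene pdyn marked the median at 7.01 ± 0.23. The dimmest were the growth hormone-releasing hormone gene ghrh (5.77, 5.63 and 5.83) and lhb, which encodes the specific subunit of luteinizing hormone (6.0, 5.91 and 5.93). Both lay within the range of the odorant receptor genes.

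Retinal genes were mixed, with a median of 9.13 over 14 genes, 4 bright and 5 dim. The retinoschisin gene rs1a led at 12.50, 12.41 and 12.47 (12.46 ± 0.04), followed by the arrestin gene sagb at 11.17 ± 0.29. The retinol dehydrogenase gene rdh8a lay near the median at 9.45 ± 0.04. Phototransduction genes lay at both ends of the list, with pde6hb, a subunit of the cone phosphodiesterase, at 11.35, 11.21 and 10.91, grk7b, a cone opsin kinase, at 6.50 ± 0.23, and guca1ab.1, a guanylate cyclase activator, at 6.12 ± 0.12. On the ear list, the otolith matrix gene otomp stood at 11.96 ± 0.09 and stm, starmaker, at 12.87 ± 0.10 from 5 features. The hair cell regulator pou4f3 read 9.30, 8.84 and 9.61, while clrn1, a hair bundle gene, was at 5.73 ± 0.07. The pigment cell list showed a similar width, from dct, a melanin synthesis enzyme, at 13.07, 12.65 and 13.38 (13.03 ± 0.37), to the regulator mitfb at 6.46 ± 0.36.

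Genes of the epidermal and notochord lists were mostly bright. Of 6 epidermal genes 5 were bright, with aep1 at 12.54 ± 0.21, agr1 at 12.14 ± 0.02, the keratin gene krt97 at 11.79 ± 0.10, and the hemidesmosome integrin genes itgb4 (11.62 ± 0.02) and itga6b (11.07 ± 0.10). The transglutaminase gene tgm1l4 was the exception at 7.93, 7.78 and 8.73, with pool 3 above the others. The notochord list held the caveolar coat genes cavin4a (12.52 ± 0.04) and cavin4b (12.34 ± 0.10), which are chiefly muscle genes. The levels of these copies, the brightest of the list, therefore say little about the notochord. It also held the caveolin gene cav1 (10.93 ± 0.14), the laminin genes lamb1a (12.04 ± 0.18) and lama1 (8.98 ± 0.25), and ptgdsb.2 (10.31 ± 0.33). None of the 6 genes on the notochord list was dim.

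The cartilage and bone list of 10 genes was mixed, with 2 bright and 5 dim. The cartilage matrix gene matn3a stood at 12.34, 12.51 and 12.07 (12.31 ± 0.22). The cartilage genes ucmab and ucmaa read 10.89 ± 0.16 and 8.06 ± 0.20. Bone genes were all dim, with spp1, for osteopontin, at 7.50 ± 0.11, the osteoblast regulators runx2b (7.03 ± 0.45) and sp7 (6.81 ± 0.22), and bglap, for osteocalcin, at 6.42, 6.06 and 6.36 (6.28 ± 0.19). The 4 bone genes lay between 6.28 and 7.50. The collagen gene col27a1b of cartilage was also dim at 7.71, 8.20 and 7.97 (7.96 ± 0.25), while the regulators ihha and twist2 stood at 9.79 ± 0.13 and 10.58 ± 0.11.

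Red blood cell genes covered the widest range of any tissue list, around a median of 7.94 over 11 genes. Of the globins, hbae3 read 14.80, 14.96 and 14.65, hbae4 8.62, 8.82 and 8.79, and hbbe3 7.45, 7.70 and 7.93. The adult-type globin genes ba1l (6.1 ± 0.15) and hbaa2 (5.66 ± 0.36) were at the dim end, where a signal above background is not shown. The red cell membrane gene ank1a was bright at 12.46 ± 0.07, and the transferrin receptor gene tfr1b stood at 10.39 ± 0.17. On the vessel list, the smooth muscle actin gene acta2 led at 12.18 ± 0.20 and cdh5, the endothelial cadherin, stood at 10.41 ± 0.27. The lowest of the 11 vessel genes was egfl7 at 8.17 ± 0.14, so 0 of them were dim.

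The lists of digestive organs differed from each other. Liver and plasma protein genes had a median of 10.03 over 12 genes, with serpinf2b, for antiplasmin, at 11.84 ± 0.19, the apolipoprotein gene apoda.1 at 11.56 ± 0.19 and the coagulation factor gene f10 at 11.37 ± 0.17. The bile acid enzyme gene cyp7a1 (6.37 ± 0.21) and the egg yolk precursor genes vtg4 (6.16 ± 0.21) and vtg5 (5.75, 5.79 and 6.68) were dim. On the exocrine pancreas list, the trypsin gene prss59.1 read 11.50, 10.88 and 10.37. The chymotrypsin gene ctrb.3 read 7.85, 7.38 and 7.10, and the amylase gene amy2al2 6.69, 6.47 and 6.96. Both protease genes were highest in pool 1 and lowest in pool 3, whereas amylase was not. The intestinal list had 1 bright gene, the fatty acid binding gene fabp1b.1, at 12.37, 12.75 and 12.22 from 3 features, and 4 dim ones. The dim genes were the gut regulators cdx1b (7.96 ± 0.28) and cdx1a (7.41 ± 0.20), the peptidase gene xpnpep2 (7.72 ± 0.25) and the enterocyte gene tmigd1 (6.30 ± 0.06), and the adenosine deaminase gene ada lay between at 8.80 ± 0.38. The glucokinase gene gck, alone on the endocrine pancreas list, read 8.76, 9.50 and 9.30.

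Immune genes were dim in these larvae. Of 38 genes of innate cells and inflammation 30 were dim and 0 bright, and their median of 6.76 lay above only 20.2% of all units. The brightest were nfkb2, a subunit of NF-kappa-B, at 10.42 ± 0.16, and mfap4.1, a macrophage marker in zebrafish, at 10.46, 10.45 and 9.95. The receptor gene csf1ra, used by macrophages and yellow pigment cells, read 9.31, 8.44 and 8.20. Interleukin genes lay between 5.59 and 7.11 over 9 genes, with il1b at 6.58, 6.61 and 7.34 and il10 at 5.59 ± 0.16. The list of lymphocytes and thymus had a median of 6.12 over 7 genes. It counts the 3 class II genes named above, at 5.25 to 5.50, and its place below the innate list depends on them. The highest of the list was tcf7, at 9.66 ± 0.23, which also acts in WNT signalling, followed by blnk at 7.65 ± 0.22. The T cell kinase gene lck stood at 6.28 ± 0.20 and dntt, of antigen receptor joining, at 6.12 ± 0.23.

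Germ line and gonad genes had a median of 6.17 over 10 genes, of which 7 were dim. The ovarian regulator foxl2a, also expressed outside the gonad, was highest at 9.56 ± 0.15. The egg coat gene zp3.2 (6.18 ± 0.12), the oocyte regulator figla (6.15 ± 0.37), the oestradiol-forming enzyme gene hsd17b1 (5.92 ± 0.25) and the luteinizing hormone receptor gene lhcgr (5.90 ± 0.42) clustered at one level. The meiotic cohesin gene rec8b was the dimmest at 5.58 ± 0.21. On the list of hatching gland and yolk, prdm1a, a regulator with many other sites of expression, read 10.39 ± 0.07.

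The chemosensory receptors were the dimmest of all 66 ranked lists, with a median of 5.64, above 4.1% of units, and 24 of 24 genes in the bottom 25%. Odorant receptor genes of the or family, 14 in number, lay between 5.34 and 6.30, and the 7 taste receptor genes between 5.4 and 6.01. The brightest of the list was ora2, a receptor of the vomeronasal type, at 7.59, 6.95 and 7.59 (7.38 ± 0.37). Next came or95a1 at 6.47, 6.19 and 6.25. No gene of this list came near the median of named genes, and their levels cannot be separated from those of the other dim genes.

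Several gene groups that every cell uses were high. Cytosolic ribosomal genes had a median of 14.84, above 99.7% of units, though rpl37 stood at 9.63 ± 0.22 and rpl6 at 12.42 ± 0.21. Splicing genes had a median of 12.19 over 8 genes, led by hnrnpk (12.59 ± 0.14) and snw1 (12.58 ± 0.07), with srsf7b lowest at 8.93 ± 0.07. Oxidative phosphorylation genes had a median of 11.66 over 11 genes, between atp5f1b and the succinate dehydrogenase subunit gene sdhda at 6.38 ± 0.23. The 10 genes of glycolysis and the tricarboxylic acid cycle spanned idh2 at 14.50 to the pyruvate dehydrogenase kinase gene pdk3b at 6.21 ± 0.15. The proteasome and ubiquitin list had a median of 10.71 over 33 genes, with psmd2, of the regulatory particle of the proteasome, at 13.44 ± 0.07. Cell cycle genes reached 13.47 ± 0.05 for the cohesin gene rad21a and 12.22 ± 0.15 for the cyclin gene ccna2. In contrast cdk4 stood at 6.90, 6.88 and 7.72, with pool 3 above the others. Of the 66 ranked lists 42 had medians above that of named genes and 24 below.

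**Figure D3:**
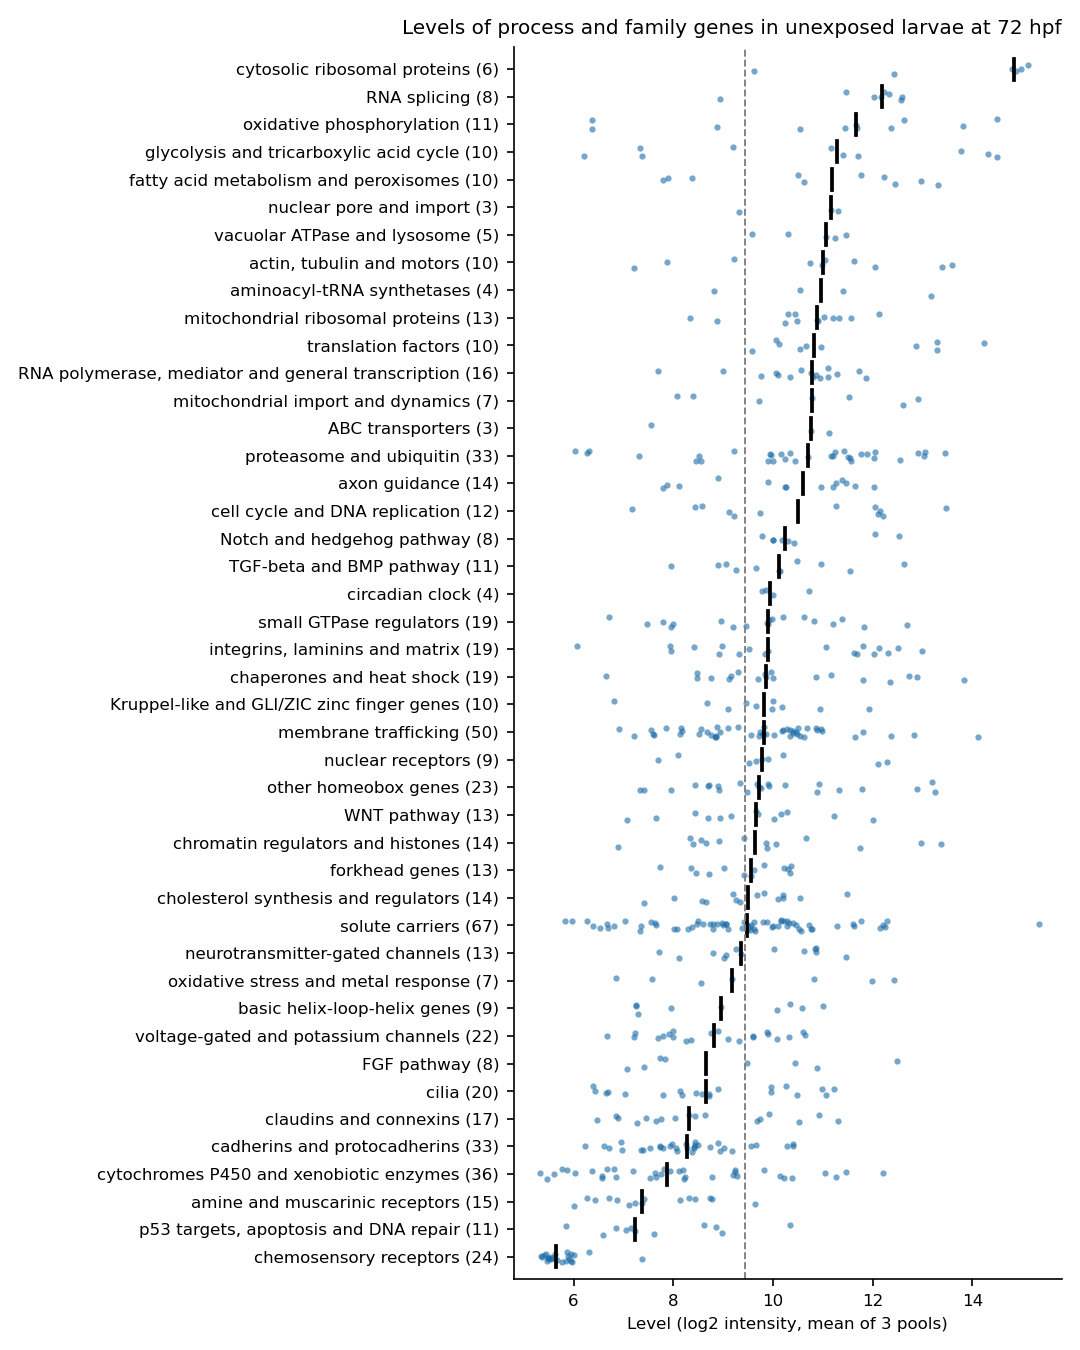
Levels of genes in lists of cell processes and gene families (log2 intensity, mean of 3 pools), with the number of genes in brackets. Points are genes, black bars list medians and the dashed line the median of all named genes (9.43). The medians run from 14.84 for cytosolic ribosomal proteins to 5.64 for chemosensory receptors.

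The lists of xenobiotic enzymes, of cadherins and of apoptosis and DNA repair had medians below that of named genes. The cytochrome P450 and xenobiotic list had a median of 7.88 over 36 genes, with 19 dim and 4 bright. Within it the cyp2aa group, detoxifying cytochromes P450, ranged from cyp2aa3 at 12.22 ± 0.09 through cyp2aa9 (11.27 ± 0.14) and cyp2aa8 (11.05 ± 0.47) to cyp2aa2 at 8.79, 8.77 and 8.77. The retinoic acid-degrading enzyme gene cyp26b1 was bright at 11.46 ± 0.21, and the cholesterol hydroxylase copy cyp46a1.5 was among the 20 dimmest named genes. The cadherin and protocadherin list had a median of 8.27 over 33 genes, and only 5 of these exceeded the median of named genes. Its highest members were cdh5 and the classical cadherin gene cdh7a (10.40 ± 0.17), and its lowest was pcdh2g7 at 6.22 ± 0.03. Apoptosis and DNA repair genes were also low, with a median of 7.24 over 11 genes, the caspase gene casp3b being highest at 10.35 ± 0.15 and casp6b.2 lowest at 5.85 ± 0.16.

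The 3 pools were alike for most genes. The median SD over the 3 pools was 0.146 among named genes and 0.172 among unnamed targets, and 90% of named genes had an SD at or below 0.302. Levels correlated across the 2650 genes with Pearson's r of 0.993 between pools 1 and 2, 0.989 between pools 1 and 3, and 0.987 between pools 2 and 3. Genes are not independent replicates, and these values mostly express the width of the level range. More than 2-fold differences were found for 5 genes between pools 1 and 2, 15 between pools 1 and 3, and 12 between pools 2 and 3. Pool 3 was the one farthest from the other two for 1095 genes, pool 2 for 867 and pool 1 for 688. The variance between genes was 3.61 and the mean variance between pools 0.0395. Within the exposed groups, each taken by itself, the median SD was 0.183 at 0.3 ppb, 0.173 at 3 ppb and 0.183 at 30 ppb.

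Spread declined with level. In groups of 20% of the named genes, from the dimmest to the brightest, the median SD was 0.199, 0.174, 0.142, 0.125 and 0.112. The pools also differed slightly in scale. In the dimmest 20% pool 3 was above the mean of the other pools for 69.2% of genes, and in the brightest 20% for 41.7%. Over all genes of each group, the median difference of pool 3 from that mean was 0.16 in the dimmest and -0.03 in the brightest. Pool 2 ran the other way, being above the others for 24.2% of the genes in the dimmest and 60.6% in the brightest 20%. The values of pool 3 in dim genes such as vtg5, il1b and cdk4, given above, have the direction of that offset, whose part in them was not tested.

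**Figure D4:**
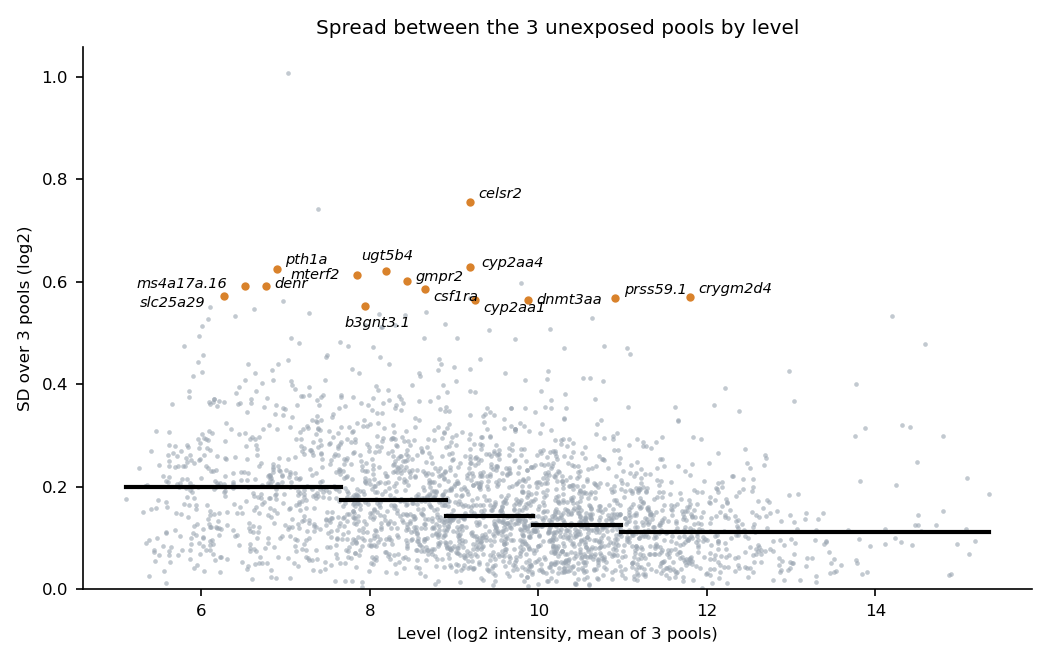
SD over the 3 unexposed pools (log2) against level (log2 intensity, mean of 3 pools) for each of 2650 named genes. Black lines are the median SD in each 20% of the genes by level, from 0.199 to 0.112, and orange points the 15 genes of largest SD among those with at least 6 features and no clone symbol. Grey points above these are a gene with a clone symbol and a gene with 3 features.

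Among named genes 38, or 1.43%, had an SD above 0.5. This count was 140 when each gene was the median of its features, 156 with its 3 brightest features, 81 without pool 1 and 61 without pool 2. Of the 15 most variable genes, 6 were also among the 15 with the median of features and 2 with the 3 brightest features, so the set described here is that of the mean of all features. The most variable was celsr2, a planar polarity cadherin gene, at 8.38, 9.87 and 9.30 in pools 1, 2 and 3, with pool 1 below the mean of the others in 11 of its 12 features. The cytochrome P450 gene cyp2aa4 followed at 9.52, 9.59 and 8.47, with pool 3 below the others in 11 of 12 features. The parathyroid hormone gene pth1a read 6.51, 6.56 and 7.62, and all 12 features put pool 3 above the mean of the others. In cyp2aa4 and pth1a a pair of pools lay close together and pool 3 stood apart, whereas celsr2 differed among all 3 pools. The glucuronosyltransferase gene ugt5b4 (8.64, 8.47 and 7.48) and cyp2aa1 (9.66, 9.47 and 8.6) were lowest in pool 3 as well. The macrophage receptor gene csf1ra was above the mean of the others in pool 1 in 10 of 10 features, and prss59.1 in 12 of 12. The 15 genes were chosen by the SD of the mean of these same features, so such counts follow largely from the choice. They lend no separate support, and features of an array are not replicates of a pool. Pool 2 alone was high for dnmt3aa, a DNA methyltransferase gene, at 9.50, 10.52 and 9.59, and for gmpr2, a GMP reductase gene, at 8.13, 9.14 and 8.07. The other genes among the 15 most variable were mterf2, ms4a17a.16, denr, slc25a29, crygm2d4 and b3gnt3.1.

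The spread of a gene among the unexposed pools ran partly with its spread in the other pools of the study. Across the 2650 genes the SD of the unexposed pools and the pooled SD within the 3 exposed groups had a Spearman's rho of 0.448, a description over genes that share arrays and level. Of the 15 most variable genes 12 exceeded the median pooled SD of the exposed groups (0.201), reaching 0.868 for crygm2d4 and 0.825 for prss59.1. The lowest of the 15 were cyp2aa1 (0.157), denr (0.162) and slc25a29 (0.166), whose spread was wide among the unexposed pools and narrow within the other groups. At the other extreme, lima1a, an actin-binding protein gene, read 11.94 in every pool (SD 0.0027). The 10 genes of smallest SD, which also included pex10, mul1, klf13, bace2, tmem88b, slc25a42, lypd6, cyp2aa2 and prkacbb, had SDs up to 0.011. Their SDs pooled over the 3 exposed groups were 0.080 to 0.287. The pooled value does not show each exposed group alone. These 10 genes were picked for their small SD in the unexposed pools, so a larger SD elsewhere follows largely from that choice.

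Members of some families mostly moved together between pools. All 8 crygm2d genes were highest in pool 2 and 7 of them lowest in pool 3, with a median difference of -0.53 between pool 3 and the mean of the others. For crygm2d2 the pools read 14.23, 14.71 and 13.65, and for crygm2d4 11.82, 12.36 and 11.22. These genes are close copies of one another, so they may not be separate readings. All 4 beta crystallin genes were lowest in pool 3, by a smaller median of -0.19. Among all named genes 30.0% were highest in pool 2 and 35.2% lowest in pool 3. Of the 6 cyp2aa genes 5 were lowest in pool 3 (median difference -0.49). Among these 5, cyp2aa2 was nearly flat at 8.79, 8.77 and 8.77, and the remaining gene, cyp2aa3, was highest in pool 3 (12.24, 12.11 and 12.29). On the xenobiotic list 27 of 36 genes had pool 3 below the mean of the others, against 47.6% of all named genes. The detoxifying gene gstp1.1 read 10.38, 10.47 and 9.55. In the opposite direction, 7 of 9 interleukin genes and 7 of 7 taste receptor genes were highest in pool 3, against 37.7% of all named genes, and both groups lie among dim genes, where pool 3 tended to read higher. Of the 14 odorant receptor genes, which are also dim, 8 were highest in pool 1 and 6 in pool 3, with a median difference of 0.03 for pool 3. With 1 array per pool, a difference between pools in their larvae, their RNA or their hybridisation cannot be told apart.

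How firmly 2 genes can be ordered was read from pools and from features. Of the 3509925 pairs of named genes, 93.5% had the same order in all 3 pools. When each gene was measured from its odd and from its even features separately, 90% of pairs kept the same order. For pairs less than 0.5 apart these shares were 56.4% and 42.5%, for pairs 0.5 to 1 apart 98.8% and 89.7%, and for pairs 1 to 2 apart 99.98% and 99.2%. The gap of a pair was measured on the same pools and features, so agreement at wide gaps was largely fixed in advance. The first share needs agreement of 3 pools and the second of 2 sets of features, so the shares are not comparable with each other. Within these data, pairs 1 or more apart on the log2 scale seldom changed order, and pairs less than 0.5 apart often did. The features of a gene had a median SD of 1.27 among themselves, much wider than the spread between pools. Features at the ends of a target were dimmer, by a median of -1.09 for the first and -0.76 for the last of 12 relative to their gene's mean. That order was read from the number in each feature's ID, whose meaning no table used here states.

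Zebrafish keeps many genes in duplicate from a whole-genome duplication in its ancestry, and the copies mostly carry the suffixes a and b. Of 81 such pairs measured on both sides, 39 differed more than 2-fold and 17 more than 4-fold. The median difference of the a and b pairs was 0.95 on the log2 scale, against 1.85 over all pairs of named genes. Of the a and b pairs, 23.5% lay within 0.5, against 14.5% of all pairs. The a copy was brighter in 41 pairs and the b copy in 40. The widest difference was between the retinoschisin copies, where rs1a (12.46 ± 0.04) exceeded rs1b (8.75, 8.06 and 8.29) by 4.09. The zinc finger copy znf362b (11.79 ± 0.17) exceeded znf362a (7.85 ± 0.17) by 3.94, jpt1b (13.28 ± 0.10) exceeded jpt1a (9.77 ± 0.15) by 3.51, and the pantothenate kinase copy pank1b (11.78 ± 0.09) exceeded pank1a (8.40 ± 0.22) by 3.38. The arrestin copies sagb and saga differed by 2.36, and the cartilage copies ucmab and ucmaa by 2.84. The pools of clic5a and clic5b overlapped (8.82 ± 0.20 and 8.91 ± 0.18). The caveolar coat copy cavin4a exceeded cavin4b in every pool by a mean of 0.17. However, the copy ahead in this pair was not the same in odd and in even features. The copies differ in the sequences that the features read, so the part of probe brightness in these differences was not tested.

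**Figure D5:**
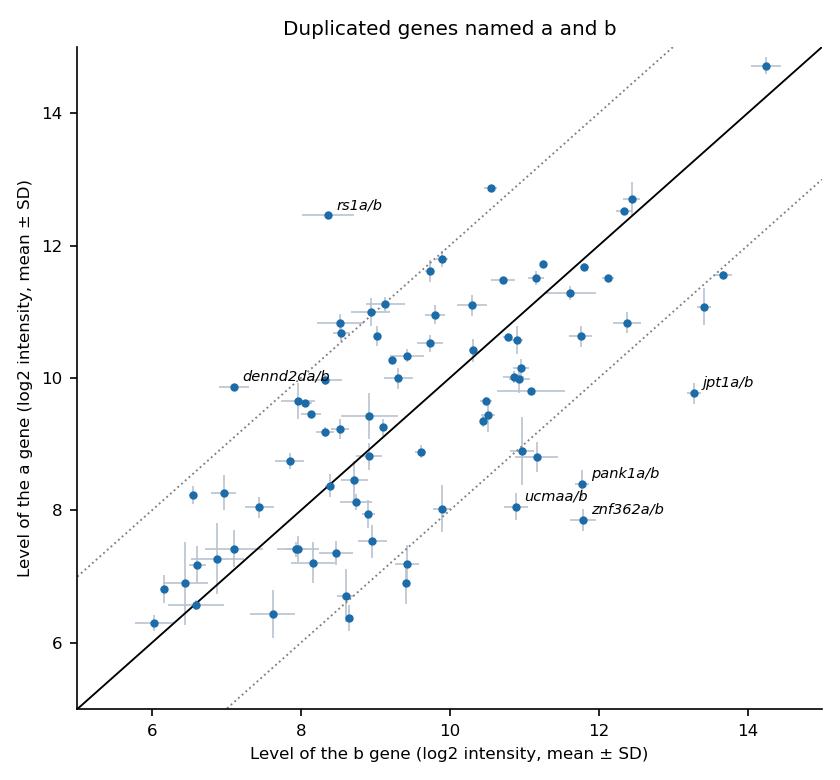
Levels of the a copy against the b copy (log2 intensity, mean ± SD over 3 pools) for 81 pairs of genes with the suffixes a and b. The solid line marks equal levels and the dotted lines 4-fold differences. Pairs lie on both sides of the line, 41 above and 40 below it, with rs1a/b farthest from it at a difference of 4.09.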

How the data were processed

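Total RNA of 12 pools of whole larvae was measured on one-colour arrays of 385000 features, and only the 3 pools at 0 ppb are described. The deposited values were linear fluorescence intensities that the authors had processed with RMA, per the submitters' processing notes. Their medians lay between 530.2 and 530.4 in the 3 pools, and several features still carried one target ID. The version of RMA, the background correction and the slide of each array are not stated in the sources available here. Each intensity was transformed to log2 here, since the plan had assumed normalized log2 values.

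A symbol was available for 30725 features. Of these, 399 had none in the platform annotation and were named by matching their target accessions to RefSeq transcripts. Features were averaged per symbol, or per target ID where no symbol was available, and 13 genes combined several targets. No filter on dim values was used. Python 3.11.15, numpy 2.4.6 and pandas 2.3.3 were used, and the steps were tested on simulated data.

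The members and the 72 gene lists were chosen with earlier results of these data known, and 19 genes that a name pattern had caught wrongly were removed. Of the lists 66 had at least 3 measured members, and together they held 888 genes. Genes were named by rule, leaving out, in the sets by level and by SD, 192 clone symbols and 47 other genes with under 6 features. The rule took the 20 brightest and 20 dimmest genes, the 15 of largest and 10 of smallest SD, and per list the 2 brightest, the one nearest the median and the dimmest, with all members of tissue lists of up to 6. Any other gene named was chosen after its values were seen. A further 6 pairs with a and b suffixes that are separate mammalian genes or protein classes were left out of the pairs compared. Alternatives changed the summary of features, the normalization, a filter on dim units, a slope along each target and the pools included. The number of arrays limits the precision.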

Additional observations from a re-analysis of the deposited data

How the results depend on the processing

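The brightest genes and the side of most lists held under the alternatives tried, whereas the set of variable genes did not. Of the 20 brightest genes 17 to 20 were shared with each alternative, the fewest with the 3 brightest features per gene. Of the 20 dimmest 10 to 20 were shared, the fewest with odd features, and 0 with the filter on dim units, which removes them. Of the 66 lists 38 to 43 lay above the median of named genes, the fewest with linear means and with the 3 brightest features, and with the filter on dim units 36 of the 62 lists that remained. The number of genes with an SD above 0.5, 38 as reported, was 140 with the median of features, 156 with the 3 brightest features, 68 with odd features and 60 with even features, which use fewer features per gene. Leaving out 1 pool gave 26 to 81 genes, with 26 without pool 3, 61 without pool 2 and 81 without pool 1, each an SD over only 2 pools. Of the 15 most variable genes 2 to 15 were shared, the fewest with the 3 brightest features. Lists close to the median of named genes changed side, and so did some farther from it. The count was between 0 and 8 lists under each alternative, the most with the dim filter. With the 3 brightest features these were pigment cells, solute carriers, forkhead genes and cholesterol synthesis, and with linear means solute carriers, forkhead genes, the WNT pathway and cholesterol synthesis. The retinal list moved from -0.30 relative to that median to 0.028 with the median of features. The WNT list moved from 0.23 to -0.011 with linear means, -0.013 with even features and -0.13 with the dim filter, and the oxidative stress list from -0.25 to 0.27 with odd features and 0.20 with the dim filter. The glial list moved from 0.67 to -0.47 when genes with under 6 features, fabp7a among them, were left out. With the dim filter, other homeobox genes moved from 0.29 to -0.089 and nuclear receptors from 0.36 to -0.020. The filter itself raised the median of the remaining 2272 genes to 9.81. Quantile normalization and the slope along targets kept 20 of the 20 brightest genes. No paired analysis was possible because 1 group is described and no result comes from a test. Signal over background could not be assessed.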

Other observations

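Lists of genes that pattern the embryo differed in level at 72 hpf. Of 8 FGF genes 4 were dim and 2 bright, of 23 homeobox genes outside the HOX clusters 3 were dim and 7 bright, and of 13 forkhead genes 1 was dim and 0 bright. The axon guidance list held 7 bright and 2 dim genes of 14. Among homeobox genes the TALE-class genes pbx4 (13.25 ± 0.06) and pbx3b (13.19 ± 0.06) were brightest. The gene hoxc13b, the only HOX gene measured under a symbol, stood at 7.45 ± 0.20. The receptor gene fgfr2 led the FGF list at 12.49 ± 0.02, while the ligand gene fgf21 was dim at 7.07 ± 0.41. In the WNT list the secreted inhibitor gene sfrp2 was highest at 11.99, 12.10 and 11.91, and the ligand gene wnt5a lowest at 7.08 ± 0.40. All 8 genes of the Notch and hedgehog list exceeded the median of named genes, from ihha (9.79 ± 0.13) to the ubiquitin ligase gene mib1 (12.53 ± 0.19). The clock genes per1b and per3 stood at 10.72 ± 0.11 and 10.01 ± 0.21, and crhbp, for the binding protein of corticotropin-releasing hormone, at 10.21 ± 0.12.

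Lists of receptors and channels of the nervous system had lower medians than the neuronal list (11.22). The 15 receptors of amines and acetylcholine had a median of 7.38, with the adrenergic receptor gene adra2b highest at 9.65 ± 0.18 and the histamine receptor gene hrh1 lowest at 5.86, 5.65 and 6.53. Voltage-gated and potassium channel genes had a median of 8.83 over 22 genes, and 0 of them were bright. Of 13 channels gated by transmitters 4 were bright, led by the NMDA receptor subunit gene grin1a at 11.46 ± 0.07. Cilia genes had a median of 8.65 over 20 genes, from cfap20 at 11.22 ± 0.22 to cfap58 at 6.12, 6.07 and 7.02.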
